A study of Mus musculus with 45 samples.

Results

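Meningeal macrophages (mMΦ) and microglia of mice at postnatal day 10 (P10) were compared over all genes, with 3 libraries of each population. These are the libraries that the labels assign to these populations at P10, 6 of the 45 in the series, and no measured value was used to choose them. The series profiled microglia, mMΦ and perivascular macrophages (pvMΦ) by bulk RNA sequencing from the embryo to the adult. Each library came from an individual mouse, per the series' design. The mice of all 6 libraries were untreated C57BL/6J of the genotype Cx3cr1GFP/wt, in which 1 allele of the fractalkine receptor gene carries GFP. Microglia and mMΦ alike thus had 1 working Cx3cr1 allele. The cells were sorted, with gates that the sources used here do not state, and all 6 libraries carry the same batch label, S232.

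Microglia are the macrophages of the brain parenchyma. They enter the embryonic brain early, multiply there in the weeks around birth, and hold their identity through TGF-beta signalling and the transcription factor Sall1. Meningeal macrophages sit in the membranes around the brain, beside vessels, fibroblasts and cerebrospinal fluid, and are known for scavenger receptors and C-type lectins that take up proteins, lipids, haem and debris. Both kinds depend on the CSF1 receptor.

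Of 53546 genes listed, 25296 had a count in these 6 libraries and 12369 had enough for a test. Levels are CPM, a gene's counts relative to its library's total after TMM scaling, and each difference is a log2 fold change of mMΦ over microglia with its standard error from edgeR's quasi-likelihood test. At a Benjamini-Hochberg adjusted p under 0.05, 1540 genes were higher and 1387 lower in mMΦ, which is 23.7% of the genes tested (12.5% higher and 11.2% lower). These shares are the background for every gene group below. Differences were large, with over 16-fold in 482 of the higher genes. The smallest called difference was 0.31 on the log2 scale, and the median of all tested genes was -0.01. Libraries of the populations did not overlap in 1539 of the 1540 higher and in all 1387 lower genes, beside 43.1% of all tested genes without overlap. With the scatter estimated from all 45 libraries of the series, 656 genes were higher and 465 lower, and 1088 of these 1121 calls were also called here, all in the same direction. Where this shared scatter moved a count stated below for a gene list by over 1.5 times, the result with it is given beside that count.

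**Figure D1:**
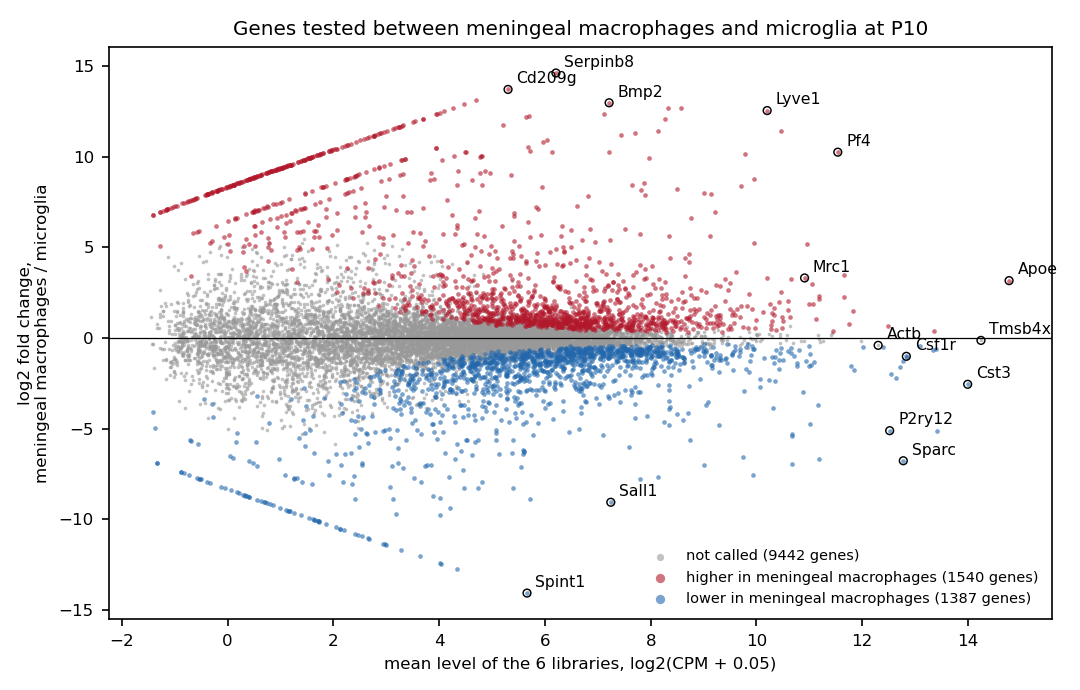
Mean level of the 6 libraries on the log2(CPM + 0.05) scale (x) against the log2 fold change of mMΦ over microglia (y), 1 point per gene tested. The 1540 red genes were called higher in mMΦ and the 1387 blue genes lower; the outer straight bands are genes with 0 counts in every library of a population, whose fitted values are no bound on the fold.

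The libraries held 17557385 to 24270739 counts, with 16207 to 16657 genes detected in microglia and 16703 to 18603 in mMΦ. mMΦ replicate 3 had the fewest counts and the most genes. Pearson correlations of log2 CPM were 0.88 to 0.89 among microglia, 0.91 to 0.92 among mMΦ and 0.70 to 0.74 between them, and the edgeR common dispersion was 0.417 and 0.238. All 6 libraries were of male type by Xist and Y-linked transcripts. Most transcripts that define lymphocytes and granulocytes were at or near 0: of 16 T, B and natural killer cell markers, 11 were at 0 in all mMΦ and 12 in all microglia libraries, and of 12 neutrophil genes 10 were under 1 CPM in all 6 (Ly6g, Elane and Camp at 0). The exceptions were Csf3r, the G-CSF receptor, and Cxcr2, with Csf3r at 98.4, 104 and 109 CPM in microglia and 29.9, 30.2 and 23.5 CPM in mMΦ (log2 fold change -1.90 ± 0.18, adjusted p = 0.00027), and Cd4 and Cd79b among lymphocyte genes, given below. A small amount of leptomeningeal fibroblast RNA was present in mMΦ and is given below.

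The listed genes by which microglia are recognised were lower in mMΦ without exception. The lists here and below were chosen with earlier results of these data known, so their counts are descriptions and not tests. Of 24 surface and secreted markers 24 were tested, and all 24 were called lower, with a median log2 fold change of -5.13. Their summed level was 122152 to 127649 CPM in microglia and 15838 to 17010 CPM in mMΦ. The genes differed widely in how far they fell. Sparc, a secreted matrix-binding glycoprotein, stood at 14486, 13215 and 14006 CPM in microglia and 211, 102 and 69.7 CPM in mMΦ (log2 fold change -6.77 ± 0.45, adjusted p = 4.2e-05). P2ry12, the ADP receptor that steers microglial processes, was at 10920.1, 11252 and 12058 CPM in microglia and 303, 352 and 337 CPM in mMΦ (log2 fold change -5.11 ± 0.10, adjusted p = 1.8e-07). In both genes every mMΦ library lay more than an order of magnitude below every microglia library.

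Other members were down by far less. Csf1r, the receptor for the growth factors CSF1 and IL-34, was at 10654, 9936 and 8698 CPM in microglia and 4762, 5117 and 4667 CPM in mMΦ (log2 fold change -1.01 ± 0.09, adjusted p = 0.00024). Fcrls, an Fc receptor-like gene, had a log2 fold change of -1.28, and Cx3cr1, whose other allele carries the reporter, one of -2.37. At the far end stood genes with no count in any mMΦ library. Spint1, a Kunitz-type inhibitor of serine proteases, was at 96.3, 103 and 104 CPM in microglia and at 0 in mMΦ, at least 2113-fold lower. Il7r, the interleukin-7 receptor chain, was at 11.6, 11.4 and 14.4 CPM in microglia and also at 0, at least 260.4-fold lower. Such bounds take 3 counts over the group as the floor and cover counting error only, since these reads carry no molecular identifiers. Low residual levels of microglial genes in mMΦ may come from fewer cells or from less RNA per cell, which cannot be told apart in bulk libraries.

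Genes called lower without overlap were ranked by fold where they averaged 10 CPM or more in microglia. Gene models without a name and mitochondrial, ribosomal protein, haemoglobin and sex-marker genes were left out of the rankings over all genes in this report. The first 12 places went to genes at 0 in all mMΦ libraries. Their fitted folds depend on the prior count and set no order, so only the bounds are given. Besides Spint1 there were 11 others. These were Kcnd1, a voltage-gated potassium channel (at least 844-fold lower), Slco4a1, an organic anion transporter (at least 687-fold), the tetraspanin gene Tspan32 (at least 678-fold), the metalloprotease gene Adamts16 (at least 515-fold), Rnase10, the cytokine gene Clcf1, Thrsp, Myo18b, B3galt5, Il7r and Mymk. Mymk encodes the fusogen myomaker of muscle and was at 11, 17.6 and 5.98 CPM in microglia. Among the lower genes with the largest absolute difference in CPM were Cst3, Sparc, P2ry12, Ctss, Ctsd, Lgmn, Fcrls, Serinc3, Csf1r, C1qc and C1qb. Cst3, the secreted inhibitor of cysteine cathepsins, was at 28994, 27368 and 27296 CPM in microglia and 4882, 4186 and 5201 CPM in mMΦ (log2 fold change -2.55 ± 0.10, adjusted p = 2.4e-06).

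The border macrophage markers ran the other way, and 29 of 30 were called higher in mMΦ with a median log2 fold change of 9.10. Lyve1, the hyaluronan receptor of lymphatic vessels and of macrophages near vessels, was at 0.489, 0.347 and 0.34 CPM in microglia and 2373, 2261 and 2433 CPM in mMΦ (log2 fold change 12.54 ± 0.16, adjusted p = 2.7e-08). Pf4, the platelet factor chemokine, was at 7.39, 2.99 and 4.37 CPM in microglia and 5884, 5689.8 and 6255 CPM in mMΦ (log2 fold change 10.24 ± 0.37, adjusted p = 1.9e-06). F13a1, the A chain of coagulation factor XIII, was at 1.22, 1.08 and 0.729 CPM in microglia and 2906, 3093 and 2455 CPM in mMΦ (log2 fold change 11.43 ± 0.22, adjusted p = 1.8e-07). In all 3 the mMΦ libraries lay close together and the microglia libraries near 0.

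Not every border marker was off in microglia. Mrc1, the mannose receptor CD206, was at 351, 377 and 329 CPM in microglia and 3488, 3439.6 and 3558 CPM in mMΦ (log2 fold change 3.31 ± 0.09, adjusted p = 6.1e-07), so the microglia libraries held a clear level of it at this age. Apoe, the lipid carrier, was at 6369, 5432 and 5121 CPM in microglia and 54608, 46071 and 50852 CPM in mMΦ (log2 fold change 3.16 ± 0.11, adjusted p = 1.8e-06), the largest CPM difference among the genes ranked. Dab2, an adaptor of clathrin-mediated uptake, was at 84.8, 138 and 94.9 CPM in microglia and 4066, 3832 and 3741 CPM in mMΦ (log2 fold change 5.19 ± 0.21, adjusted p = 2.9e-06). Smaller differences were those of Stab1, a scavenger receptor (log2 fold change 1.96), Gas6, the ligand of the TAM receptors (1.37), Hpgd, which inactivates prostaglandins (1.28), and Slc40a1, the iron exporter ferroportin (1.27). The 1 marker not called was Lilra5 (log2 fold change 0.29, 95% interval -0.48 to 1.05).

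Ranked by fold among genes averaging 10 CPM or more in mMΦ, the 12 first genes included several at 0 in microglia, for which again only the bound and not the place in the order counts. Serpinb8, an intracellular inhibitor of serine proteases, was at 0 in all 3 microglia libraries and at 151, 149 and 143 CPM in mMΦ, at least 3157-fold higher. The others were the lectin gene Cd209g (at least 1684-fold), Gypc, which encodes glycophorin C (at least 1109.6-fold), Bmp2, Thbd, the thrombin receptor thrombomodulin (at least 949-fold), Clec4n, Cd209f, Dcn, Lyve1, Cd40, the co-stimulatory receptor of the TNF receptor family (at least 730.5-fold), Kmo, an enzyme of tryptophan breakdown (at least 686-fold), and the gelatinase gene Mmp9. Dcn encodes decorin of fibroblasts and is taken up below with the markers of other cells. Mmp9 was at 0, 0.0433 and 0.0972 CPM in microglia and 273, 286 and 273 CPM in mMΦ (log2 fold change 12.36 ± 0.35, adjusted p = 6.6e-07).

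**Figure D2:**
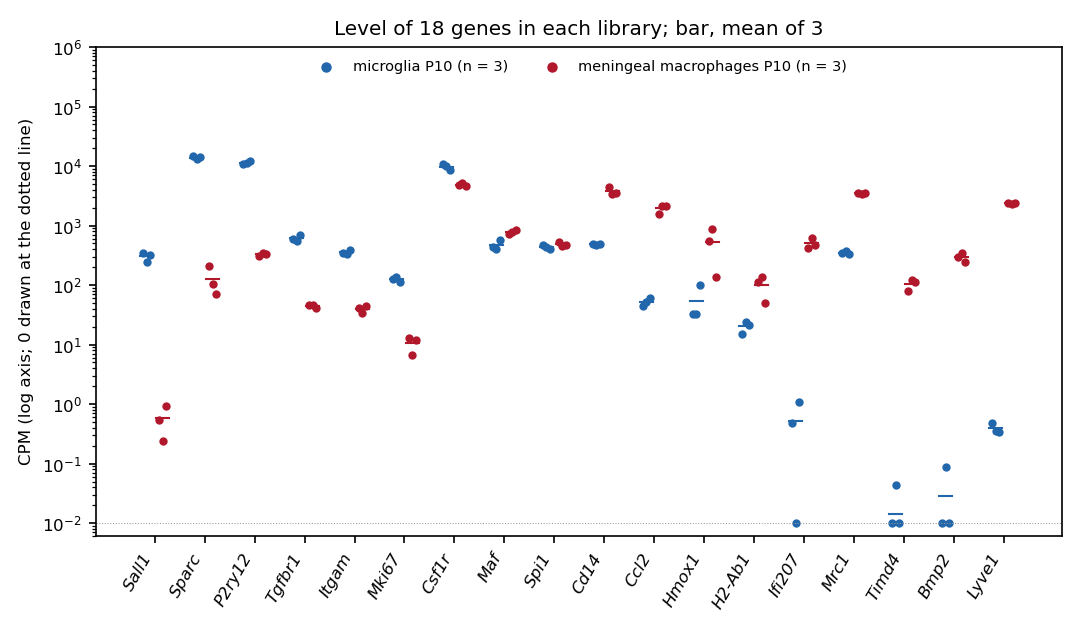
Level of 18 genes in each library (CPM, log axis, 0 drawn at the dotted line at 0.01) for microglia and mMΦ at P10 (3 libraries each); bars are means. The genes at the left, from Sall1 to Csf1r, were higher in microglia. Maf and the genes to the right of Spi1 were higher in mMΦ. Spi1, between Maf and Cd14, was not called, and its libraries of both populations overlap.

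Transcription factors were split. Of 30 listed factors of macrophage identity 28 were tested, 10 were higher, 10 lower and 8 not called, with a median log2 fold change of 0.44 (7 higher and 4 lower with the shared scatter). Sall1, the zinc finger factor of microglia, was at 349, 244 and 316 CPM in microglia and 0.55, 0.238 and 0.943 CPM in mMΦ (log2 fold change -9.05 ± 0.40, adjusted p = 4.8e-06). Its relative Sall3 was at 36.7, 37.2 and 35.9 CPM in microglia and 0, 0.0476 and 0.111 CPM in mMΦ (log2 fold change -9.39 ± 0.68, adjusted p = 6.8e-05). Smad3, the TGF-beta effector, was also lower (-2.31), as were Bhlhe41 (-1.60) and Hhex (-1.28). Maf, which restrains macrophage self-renewal, was higher in mMΦ, at 434, 405 and 571 CPM in microglia and 730.1, 770.1 and 831 CPM in mMΦ (log2 fold change 0.73 ± 0.14, adjusted p = 0.009), and its libraries did not overlap.

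Higher in mMΦ were Bhlhe40, at 0 in microglia and 1.78, 8.61 and 8.77 CPM in mMΦ (at least 136-fold), and Ahr, the aryl hydrocarbon receptor, at 0, 0.0867 and 0.0486 CPM in microglia and 16.8, 42.1 and 26.9 CPM in mMΦ (log2 fold change 9.09 ± 0.82, adjusted p = 0.00021). Id3, an inhibitor of basic helix-loop-helix factors and a target of BMP signalling, was at 0.783, 0 and 2.72 CPM in microglia and 64.2, 57.1 and 47.7 CPM in mMΦ (log2 fold change 5.60 ± 1.08, adjusted p = 0.008). Its relative Id2 was higher as well (2.36), and so were Cebpb (2.37) and Irf7 (3.39). The master regulator of the myeloid lineage was near equal: Spi1, which encodes PU.1, was at 465, 436 and 405 CPM in microglia and 534, 459 and 470.1 CPM in mMΦ (log2 fold change 0.16, 95% interval -0.08 to 0.41), with overlapping libraries. Cebpa was not called either (log2 fold change 0.17, 95% interval -0.42 to 0.76).

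In the TGF-beta and BMP pathway ligands, receptors and feedback genes moved apart. Of 37 listed genes 28 were tested, 6 were higher, 8 lower and 14 not called, with a median of -0.28 (3 higher and 4 lower with the shared scatter). On the ligand side Bmp2 was at 0, 0.0867 and 0 CPM in microglia and 296, 346 and 248 CPM in mMΦ (log2 fold change 12.97 ± 0.45, adjusted p = 1.7e-06), while Tgfb1 was slightly lower in mMΦ (-0.60), a call that was lost without microglia replicate 1, mMΦ replicate 1 or mMΦ replicate 3. Tgfbr1, the signalling receptor for TGF-beta, was at 596, 548 and 698 CPM in microglia and 46.3, 46.5 and 41.2 CPM in mMΦ (log2 fold change -3.78 ± 0.14, adjusted p = 2.1e-06). Tgfbr2, the ligand-binding chain, was at 204, 278 and 229 CPM in microglia and 244, 293 and 278 CPM in mMΦ with overlapping libraries (log2 fold change 0.20, 95% interval -0.14 to 0.53).

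Downstream of the receptors, Smad7, an inhibitory SMAD that TGF-beta itself induces, was at 35.8, 23 and 29.7 CPM in microglia and 1.61, 2.24 and 1.28 CPM in mMΦ (log2 fold change -4.11 ± 0.42, adjusted p = 0.00039). Itgav, a subunit of integrins that free TGF-beta from its latent complex, was lower (-2.38). Nrros, which anchors latent TGF-beta on microglia, was modestly higher in mMΦ (0.51), a call lost when any of the 3 mMΦ libraries was left out. The BMP pseudoreceptor gene Bambi was higher as well (1.68). Counts of this list were among the less stable ones: leaving out microglia replicate 1 left 4 genes lower and leaving out mMΦ replicate 1 left 5, against 8 with all libraries.

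Receptors for uptake were mostly higher in mMΦ. Of 27 listed C-type lectins and Siglecs 23 were tested, 15 were higher and 5 lower (median 3.27), and of 25 tested scavenger and efferocytosis receptors and their ligands 14 were higher and 8 lower, with a median of 1.96 (12 higher and 5 lower with the shared scatter). Among lectins, Clec4n, which encodes dectin-2, a receptor for fungal mannans, was at 0.0978, 0.173 and 0.0486 CPM in microglia and 715, 724 and 853 CPM in mMΦ (log2 fold change 12.70 ± 0.26, adjusted p = 1.8e-07). Clec10a and Mgl2, lectins for galactose and N-acetylgalactosamine, had log2 fold changes of 11.33 and 8.16, and Clec7a, the beta-glucan receptor dectin-1, one of 2.66. The DC-SIGN relatives Cd209a, Cd209b, Cd209f and Cd209g were all called higher. They are near-identical copies in part, and how the counting split their reads is not given. The lectins and Siglecs lower in mMΦ were Siglech (-5.31), Siglecf (-4.63), Siglece (-0.97), Cd33 (-0.96) and Clec5a (-1.09).

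The scavenger and efferocytosis receptors did not separate by kind, since genes for the clearance of dead cells lay on both sides. Timd4, the phosphatidylserine receptor TIM-4 of long-lived tissue macrophages, was at 0, 0.0433 and 0 CPM in microglia and 79.4, 119 and 114 CPM in mMΦ (log2 fold change 12.24 ± 0.53, adjusted p = 4.2e-06). Msr1, the class A scavenger receptor, was at 1.57, 0.737 and 1.22 CPM in microglia and 334, 443 and 428 CPM in mMΦ (log2 fold change 8.42 ± 0.29, adjusted p = 1.8e-06), and Cd36, the receptor for oxidised lipids, at 11.5, 7.32 and 9.91 CPM in microglia and 1098, 1370.1 and 1069 CPM in mMΦ (log2 fold change 6.94 ± 0.23, adjusted p = 1.4e-06). Colec12, a collagenous scavenger receptor, had a log2 fold change of 11.21. Other receptors and bridging factors for the clearance of dead cells were higher in microglia: Trem2 (-2.32), Mertk (-0.997), Pros1 (-2.24), Mfge8 (-1.64) and Lrp1, at 413, 367 and 418 CPM in microglia and 20.4, 13.9 and 22.2 CPM in mMΦ (log2 fold change -4.41 ± 0.21, adjusted p = 6.6e-06). Axl was not called (log2 fold change 0.79, 95% interval 0.12 to 1.47).

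Interferon-response genes were higher in mMΦ as a group. Of 40 listed genes 36 were tested, 23 were higher, 1 lower and 12 not called, with a median log2 fold change of 2.78 (15 higher and 0 lower with the shared scatter). The largest differences were those of the Ifi200 family, a cluster of DNA-sensing and interferon-induced genes. Ifi207 was at 0.489, 0 and 1.07 CPM in microglia and 416, 611 and 471 CPM in mMΦ (log2 fold change 9.93 ± 0.67, adjusted p = 4.6e-05). Ifi203 was at 0, 0.0433 and 0.0486 CPM in microglia and 30, 38 and 47.7 CPM in mMΦ (log2 fold change 10.02 ± 0.63, adjusted p = 3.1e-05), and Ifi208 was at 0 in microglia and 18.7, 10.3 and 8.93 CPM in mMΦ (at least 269.6-fold higher). Genes of this family are near copies of each other, so single members are less certain than the family.

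Interferons act through the factors ISGF3 and IRFs, which bind the interferon-stimulated response element (ISRE). The letters GAAA, 2 bases of any kind and again GAAA, the core of that element, were searched on both strands in RefSeq promoters of the build GRCm38.p6 (250 bases before to 50 after each gene's start). They were in 3.99% of 27025 promoters, in 3.98% of the promoters of tested genes, in 6.17% of those of genes higher in mMΦ and in 3.98% of those of genes lower. Of the 23 higher interferon genes 16 had a promoter in the table, of which 13 (81.2%) held a match. Of the 12 uncalled genes 10 had one, of which 6 held a match (60%). The following stretches of the genes with the largest differences, of 2 classical interferon genes and of Gbp3, the 1 gene that was lower, are shown to make the element visible, with the matches in capitals.
Ifi207 (chr1:173741816-173741875, minus strand, first match 41 bases before the start): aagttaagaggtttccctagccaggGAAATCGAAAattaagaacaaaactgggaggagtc
Ifi203 (chr1:173942493-173942552, minus strand, first match 35 bases before the start): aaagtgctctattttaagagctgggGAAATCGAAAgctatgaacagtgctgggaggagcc
Ifi211 (chr1:173913049-173913108, minus strand, first match 37 bases before the start): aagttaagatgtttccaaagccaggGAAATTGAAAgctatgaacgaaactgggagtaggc
Ifi208 (chr1:173673582-173673641, plus strand, first match 58 bases before the start): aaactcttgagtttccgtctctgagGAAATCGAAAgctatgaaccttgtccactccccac
Isg15 (chr4:156200850-156200921, minus strand, first match 78 bases before the start): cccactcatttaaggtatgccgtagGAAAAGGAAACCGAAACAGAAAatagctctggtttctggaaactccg
Bst2 (chr8:71537562-71537627, minus strand, first match 130 bases before the start): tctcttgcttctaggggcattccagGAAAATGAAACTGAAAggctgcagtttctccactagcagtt
Gbp3 (chr3:142559974-142560039, plus strand, first match 45 bases before the start): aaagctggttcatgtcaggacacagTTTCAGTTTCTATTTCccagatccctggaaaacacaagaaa

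The element is thus found in promoters of genes that were higher, uncalled and lower, and a match is a description, not a measured site. Isg15, a ubiquitin-like protein, was at 7.48, 2.82 and 4.62 CPM in microglia and 29.1, 40 and 36.2 CPM in mMΦ (log2 fold change 2.82 ± 0.43, adjusted p = 0.0028). Bst2, the tetherin that holds back budding viruses, was at 135, 137 and 119 CPM in microglia and 569, 462 and 569 CPM in mMΦ (log2 fold change 2.03 ± 0.13, adjusted p = 3.3e-05). Irf7, the factor that amplifies the response, was at 1.86, 9.27 and 3.99 CPM in microglia and 53.7, 64 and 40.8 CPM in mMΦ (log2 fold change 3.39 ± 0.58, adjusted p = 0.0047). In these 3 genes all mMΦ libraries lay above all microglia libraries.

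Ifitm3, a restriction factor of the membrane, was at 31.1, 23.3 and 26.2 CPM in microglia and 299, 291 and 324 CPM in mMΦ (log2 fold change 3.50 ± 0.16, adjusted p = 5.1e-06), and Oas1a, Oasl2 and Oas2, sensors of double-stranded RNA or their relatives, had log2 fold changes of 3.68, 4.24 and 7.85. Gbp3, a guanylate-binding protein, was at 43.5, 55 and 69.4 CPM in microglia and 27.7, 22.5 and 27.7 CPM in mMΦ (log2 fold change -1.11 ± 0.25, adjusted p = 0.015), and this call was lost without mMΦ replicate 2. Irf9, a subunit of ISGF3, was not called (log2 fold change 0.64, 95% interval 0.18 to 1.10). Rsad2, an enzyme with antiviral action, was at 0, 0 and 7.39 CPM in microglia and 14.8, 44.3 and 25.2 CPM in mMΦ, and Ifit1 at 0.0978, 1.34 and 10.6 CPM in microglia and 20, 23.9 and 37.7 CPM in mMΦ. Both were not called, with microglia replicate 3 well above the other microglia libraries.

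**Figure D3:**
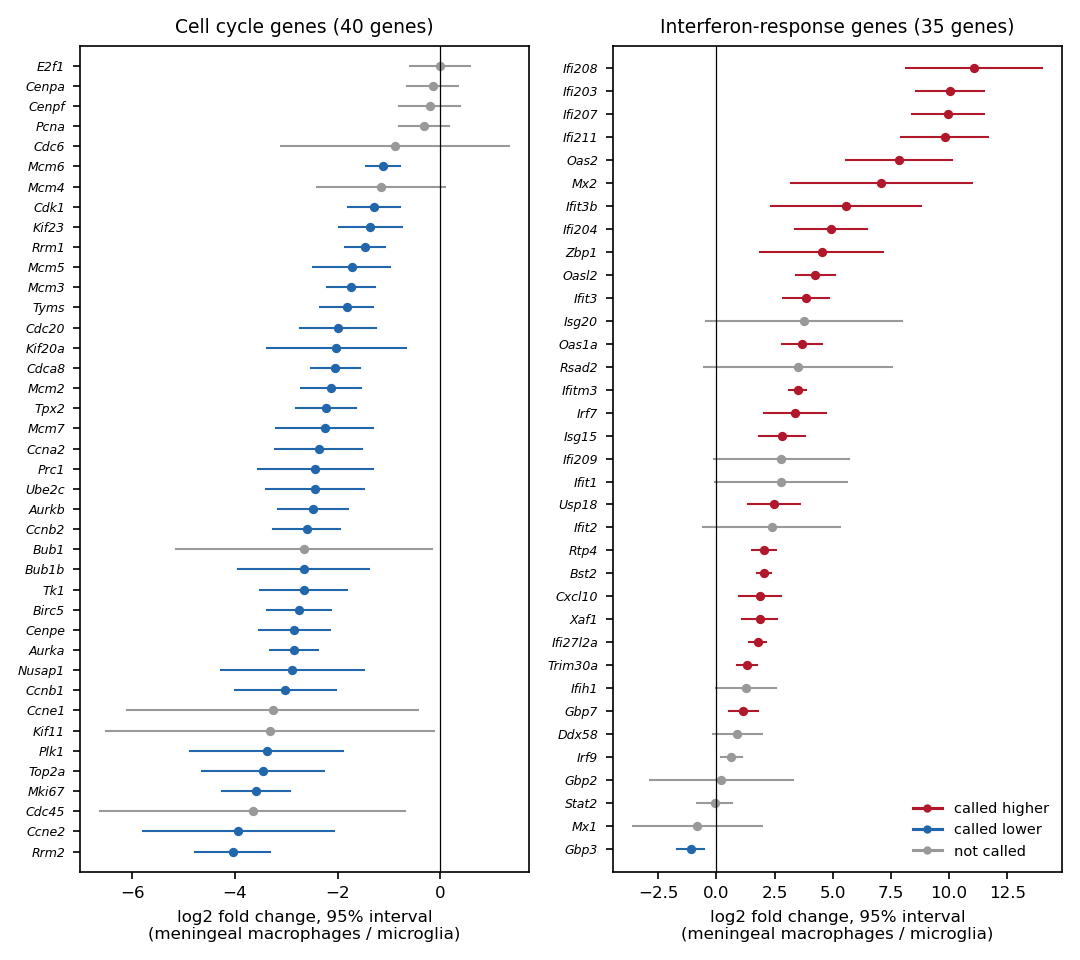
Log2 fold change of mMΦ over microglia with its 95% interval for the 40 cell cycle genes (left) and 35 interferon-response genes (right). Of the cell cycle genes 30 were called lower (blue) and 10 not called (grey), and of the interferon genes 23 were called higher (red), Gbp3 lower and 11 not called; 1 further tested gene that was not called is not drawn.

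Class II antigen presentation was divided between the peptide-binding chains and the loading machinery. Of 11 tested genes 4 were higher and 6 lower (median -0.90). H2-Aa, H2-Ab1 and H2-Eb1 encode the chains of the classical molecules. H2-Ab1 was at 15, 24.2 and 21.5 CPM in microglia and 114, 135 and 49.1 CPM in mMΦ (log2 fold change 2.30 ± 0.40, adjusted p = 0.0049), H2-Aa at 2.74, 3.77 and 0.486 CPM in microglia and 84.5, 61.4 and 30.3 CPM in mMΦ (log2 fold change 4.65 ± 0.74, adjusted p = 0.0035) and H2-Eb1 at 0.734, 1.69 and 0.389 CPM in microglia and 79.4, 55.4 and 19.2 CPM in mMΦ (log2 fold change 5.75 ± 0.75, adjusted p = 0.0013). In each the 3 mMΦ libraries were spread over more than a 2-fold range, with replicate 3 lowest, and lay above all microglia libraries.

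Cd74, the invariant chain, was higher by less (1.01), and its call was lost without microglia replicate 1 or 3 and without mMΦ replicate 1 or 2. Lower in mMΦ were H2-DMa and H2-DMb1, which exchange the peptide (-2.93 and -1.05), H2-Oa and H2-Ob, which restrain that step (-9.73 and -3.92), and the protease gene Ctss, which degrades the invariant chain (-2.20). For class I, 17 genes were tested, 6 were higher and 2 lower (median 0.49). H2-D1 and H2-K1 were higher (1.25 and 1.23), as were the immunoproteasome genes Psmb8 and Psmb9, whereas the chaperone genes Calr (-1.04) and Pdia3 (-0.88) were lower. H2 genes share long stretches of sequence, and their counts are uncertain for that reason. B2m, the light chain, was at 4047, 3544 and 5325 CPM in microglia and 3320.00, 3703 and 4310.1 CPM in mMΦ with overlapping libraries (log2 fold change -0.19, 95% interval -0.57 to 0.19).

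Secreted signals were among the groups with the most genes higher. Of 43 listed chemokines, cytokines and growth factors 38 were tested, 25 were higher and 5 lower, with a median of 2.45 (16 higher and 1 lower with the shared scatter), and without mMΦ replicate 3 the lower genes numbered 3. Ccl2, the main attractant of monocytes, was at 44.2, 52.9 and 59.6 CPM in microglia and 1555, 2166 and 2097 CPM in mMΦ (log2 fold change 5.21 ± 0.19, adjusted p = 2.1e-06). Ccl7 had a log2 fold change of 8.40, Ccl8 of 8.99, Ccl24 of 4.61 and Ccl12 of 2.22. For neutrophils, Cxcl2 was at 8.22, 2.6 and 1.07 CPM in microglia and 1034, 980.5 and 1057 CPM in mMΦ (log2 fold change 8.02 ± 0.68, adjusted p = 0.00015) and Cxcl1 at 0, 0.0867 and 0.0972 CPM in microglia and 122, 113 and 71.8 CPM in mMΦ (log2 fold change 10.55 ± 0.54, adjusted p = 1.1e-05).

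NF-kappa-B is the factor through which inflammatory chemokine genes are usually induced. The letters GGGA, 2 bases of any kind and TTCC, the core of its element, were searched on both strands in the same promoters and were in 1.63% of all 27025, in 2.42% of the promoters of genes higher in mMΦ and in 1.70% of those of genes lower. Of the higher chemokine, cytokine and growth factor genes 17 had a promoter in the table, of which 3 (17.6%) held a match. Of the 4 lower ones with a promoter 2 did. The stretches of the neighbouring genes Cxcl1 and Cxcl2 and of Il16, which was lower in mMΦ (-0.76, lost without mMΦ replicate 3), are shown with the matches in capitals, where the forward and the reverse match overlap.
Cxcl1 (chr5:90891149-90891209, plus strand, first match 71 bases before the start): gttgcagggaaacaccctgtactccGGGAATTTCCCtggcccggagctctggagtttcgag
Cxcl2 (chr5:90903777-90903837, plus strand, first match 97 bases before the start): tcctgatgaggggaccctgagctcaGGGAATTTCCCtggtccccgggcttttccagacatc
Il16 (chr7:83655509-83655569, minus strand, first match 49 bases before the start): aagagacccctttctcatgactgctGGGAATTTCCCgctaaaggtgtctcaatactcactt

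Among cytokines, Il1b, the gene of interleukin-1 beta, was at 26.5, 23.1 and 38.8 CPM in microglia and 225, 557 and 1098 CPM in mMΦ (log2 fold change 4.41 ± 0.57, adjusted p = 0.0013), and Il10, which dampens inflammation, at 0, 1.17 and 0 CPM in microglia and 33.2, 53.5 and 73 CPM in mMΦ (log2 fold change 7.02 ± 1.23, adjusted p = 0.0053). Tnf was higher by less (1.55), as was Ccl3 (1.32). Il1rn, the receptor antagonist of interleukin-1, was at 0 in microglia and 0.888, 6.28 and 12.7 CPM in mMΦ (at least 141-fold higher), with the call lost without mMΦ replicate 2 or 3. Of the growth factors, Igf1 was at 19.8, 30 and 27.2 CPM in microglia and 404, 425 and 436 CPM in mMΦ (log2 fold change 4.04 ± 0.18, adjusted p = 5.4e-06). Vegfa was at 0 in microglia and 5.16, 8.8 and 2.28 CPM in mMΦ (at least 116-fold higher), and Hbegf and Areg, ligands of the EGF receptor, had log2 fold changes of 2.68 and 8.09. Microglia had more Pdgfb (-3.69) and Csf1 (-2.82).

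Receptors for such signals were more often lower than higher. Of 37 tested 10 were higher and 14 lower, with a median of -0.06 (6 higher and 9 lower with the shared scatter). Ednrb, the endothelin B receptor, was at 27.3, 20.6 and 18.5 CPM in microglia and 1055, 1244 and 992 CPM in mMΦ (log2 fold change 5.63 ± 0.20, adjusted p = 1.8e-06). Ccr1 and Nrp1 were also higher (2.14 and 1.47). Lower were the interferon-gamma receptor gene Ifngr1 (-1.69), the interleukin-10 receptor gene Il10ra (-1.59) and Il6st, the shared chain gp130 (-2.72). The type I interferon receptor genes were near equal, with Ifnar2 a little higher (0.48) and Ifnar1 not called (log2 fold change 0.21, 95% interval -0.35 to 0.77).

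Of 33 tested purine and other G protein-coupled receptors 10 were higher and 13 lower (median -0.25). Besides P2ry12, microglia had more P2ry13 (-3.00), Gpr34 (-3.72), Adgrg1 (-7.66) and the adenosine receptor gene Adora3, at 101, 122 and 91.6 CPM in microglia and 0.508, 0 and 0.111 CPM in mMΦ (log2 fold change -8.87 ± 0.70, adjusted p = 0.0001). mMΦ had more Fpr1, a receptor for formylated bacterial peptides, which was at 0 in microglia and 22.7, 24.7 and 45.7 CPM in mMΦ (at least 663-fold higher), the prostaglandin receptor gene Ptger4 (7.17), the acid-sensing Gpr65 (4.67) and P2rx4, an ATP-gated channel, at 63.6, 90 and 87.8 CPM in microglia and 414, 435 and 381 CPM in mMΦ (log2 fold change 2.35 ± 0.16, adjusted p = 5e-05). Adgre1, which encodes F4/80, was not called (log2 fold change -0.26, 95% interval -0.51 to 0.00).

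Of 32 tested Toll-like and other pattern receptors 11 were higher and 7 lower, with a median of -0.02 (6 higher and 5 lower with the shared scatter). Cd14, the co-receptor for lipopolysaccharide, was at 491, 478 and 486 CPM in microglia and 4398, 3421 and 3523 CPM in mMΦ (log2 fold change 2.96 ± 0.12, adjusted p = 2.9e-06). Its partner Tlr4 was not called (log2 fold change 0.16, 95% interval -0.30 to 0.62), and Tlr2 was higher (0.88). Tlr8 was at 0, 0.0433 and 0 CPM in microglia and 23.7, 27.3 and 40.8 CPM in mMΦ (log2 fold change 10.48 ± 0.79, adjusted p = 7.7e-05), and the inflammasome gene Nlrp3 was higher too (1.43). Microglia had more Sting1, the adaptor for cyclic dinucleotides (-2.64), Tlr12 (-9.69), Cd180 (-2.07) and Unc93b1, which carries endosomal Toll-like receptors (-1.01). Of 8 tested Fc receptor genes 3 were higher and 2 lower (2 higher and 1 lower with the shared scatter). Fcgrt, the neonatal Fc receptor that recycles IgG, was at 806, 975 and 785 CPM in microglia and 4363, 3464 and 3544 CPM in mMΦ (log2 fold change 2.15 ± 0.13, adjusted p = 2.9e-05). Fcgr2b was higher (1.75), and Fcgr4 was lower (-1.64).

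Complement genes moved in both directions. Of 20 tested 9 were higher and 6 lower (median 1.40). The C1q chains were lower, but by less than 2-fold: C1qa was at 6855, 6120.4 and 5871 CPM in microglia and 4713, 4102 and 4501 CPM in mMΦ (log2 fold change -0.50 ± 0.09, adjusted p = 0.0063), and C1qb and C1qc had log2 fold changes of -0.62 and -0.67. Itgam, a chain of complement receptor 3 and the CD11b of cell sorting, was at 341, 337 and 384 CPM in microglia and 41.4, 33.3 and 45 CPM in mMΦ (log2 fold change -3.15 ± 0.16, adjusted p = 9.1e-06), and its partner Itgb2 was lower as well (-1.34). C2 and C4b were higher in mMΦ (6.38 and 5.74). Properdin, Cfp, was higher as well, at 1.42, 0.13 and 5.78 CPM in microglia and 773, 699 and 692 CPM in mMΦ (log2 fold change 8.22 ± 0.91, adjusted p = 0.00058). The anaphylatoxin receptor genes C5ar1 and C3ar1 were higher (3.05 and 1.24).

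Lysosomal genes were lower more often than higher in mMΦ. All 40 listed were tested, 21 were lower, 7 higher and 12 not called, with a median of -0.52 (4 higher and 16 lower with the shared scatter). Cathepsins did not move as one. Ctsd was at 9311, 10118 and 9177 CPM in microglia and 2556, 2309 and 2327 CPM in mMΦ (log2 fold change -1.99 ± 0.08, adjusted p = 3.1e-06), and Ctss, Ctsl, Ctsf and Ctsz were also lower (-2.20, -1.74, -1.75 and -1.33). Ctsc, which activates serine proteases of granules, was at 974, 1339.98 and 1049 CPM in microglia and 5177, 5802 and 4998 CPM in mMΦ (log2 fold change 2.25 ± 0.14, adjusted p = 2.8e-05), and Ctsb was slightly higher (0.39), a call lost without mMΦ replicate 1 or 2. Arsb, an enzyme that degrades dermatan and chondroitin sulphate, was at 1026, 967 and 937 CPM in microglia and 83.6, 57.3 and 84.7 CPM in mMΦ (log2 fold change -3.70 ± 0.17, adjusted p = 6.9e-06). Ctsa, Hexa and Lamp1 were within 2-fold and not called. Atp6v0d2, a proton pump subunit, was at 0 in microglia and at 14.2, 1.52 and 4.11 CPM in mMΦ (at least 141-fold higher).

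**Figure D4:**
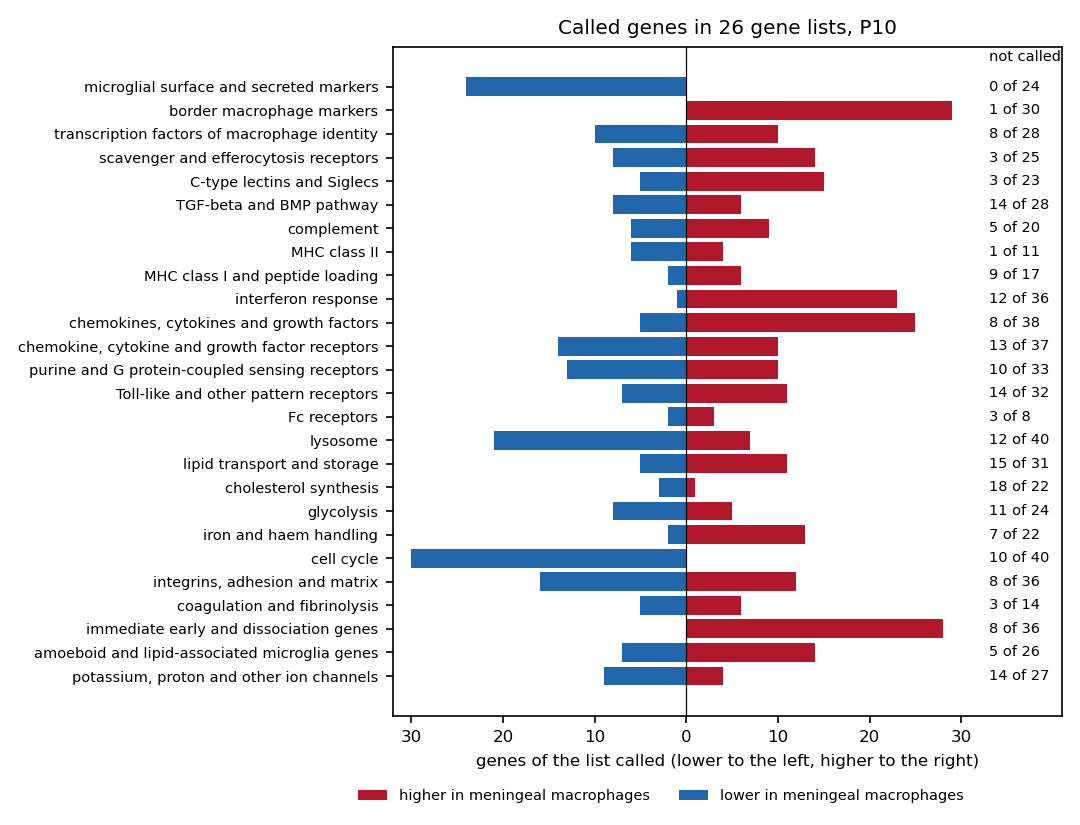
Number of genes called higher in mMΦ (red, to the right) or lower (blue, to the left) in each of 26 gene lists, with the number not called of those tested at the right. The microglial marker and cell cycle lists hold no gene called higher, and the border marker and immediate early lists no gene called lower.

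Iron and haem genes were mostly higher in mMΦ, with 13 of 22 tested higher and 2 lower, with a median of 0.83 (10 higher and 1 lower with the shared scatter). Cd163, the receptor for haemoglobin bound to haptoglobin, was at 0.196, 0.303 and 0.0972 CPM in microglia and 571, 548 and 565 CPM in mMΦ (log2 fold change 11.40 ± 0.25, adjusted p = 2.3e-07). Hmox1, haem oxygenase 1, was at 32.1, 32.3 and 99.9 CPM in microglia and 556, 865 and 136 CPM in mMΦ (log2 fold change 3.24 ± 0.73, adjusted p = 0.015), with mMΦ replicate 3 well under the other 2 and microglia replicate 3 above its group. The libraries did not overlap, but the call was lost without microglia replicate 1, microglia replicate 2 or mMΦ replicate 2. Blvra and Blvrb, which reduce biliverdin, were higher (2.36 and 3.44), as were the ferritin genes Fth1 and Ftl1 (1.51 and 1.18). Spic, a factor of haem-degrading macrophages, was at 0 in microglia and 9.18, 14.9 and 18.5 CPM in mMΦ (at least 304-fold higher), and the ferroxidase gene Cp had a log2 fold change of 6.16. The divalent metal transporter genes Slc11a1 and Slc39a8 were lower (-0.73 and -1.76). Summed over 9 erythroid genes, of which none had enough counts for a test, mMΦ replicate 1 held 93.5 CPM and the other mMΦ libraries 1.43 and 0.444, against 0.05 to 0.34 CPM in microglia, and the iron list as a whole summed to 16287, 16521 and 15209 CPM in the 3 mMΦ libraries.

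Lipid handling moved in both directions, with 11 of 31 tested genes higher and 5 lower, with a median of 0.61 (7 higher and 4 lower with the shared scatter). Pltp, the phospholipid transfer protein, was at 2.05, 2.64 and 1.31 CPM in microglia and 491, 445 and 479 CPM in mMΦ (log2 fold change 7.87 ± 0.26, adjusted p = 1.4e-06), and Plin2, which coats lipid droplets, at 152, 124 and 140.5 CPM in microglia and 1009, 1117 and 1062 CPM in mMΦ (log2 fold change 2.94 ± 0.12, adjusted p = 2.9e-06). Ch25h, cholesterol 25-hydroxylase, was at 0 in microglia and 12.1, 9.37 and 6.16 CPM in mMΦ (at least 196-fold higher). Microglia had more Lpcat2, a phospholipid remodelling enzyme (-3.87), the exporter gene Abcg1 (-2.89) and Lpl, lipoprotein lipase (-2.71). Of 22 cholesterol synthesis genes 18 were not called, 3 were lower and 1 was higher, with a median of -0.28 (0 higher and 0 lower with the shared scatter). For glycolysis 5 of 24 tested genes were higher and 8 lower (3 higher and 2 lower with the shared scatter), and 3 were higher without microglia replicate 2, mMΦ replicate 1 or mMΦ replicate 2, and 5 lower without mMΦ replicate 3. Slc2a5, the fructose carrier of microglia, was at 993, 1066 and 989.8 CPM in microglia and 5.96, 6.56 and 11.4 CPM in mMΦ (log2 fold change -7.00 ± 0.28, adjusted p = 3.1e-06), and Ldhb at 597, 716 and 576 CPM in microglia and 32.6, 14.6 and 21.5 CPM in mMΦ (log2 fold change -4.78 ± 0.31, adjusted p = 3.6e-05). Gapdh and Pgk1 have many processed copies in the genome, and their levels here are uncertain.

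Cell cycle genes were lower in mMΦ: of 40 tested 30 were lower and 10 not called, with a median log2 fold change of -2.40, beside 11.2% of all tested genes lower. Their summed level was 3533, 3880 and 3223 CPM in the microglia libraries and 1109, 937 and 886 CPM in the mMΦ libraries. Mki67, the proliferation antigen, was at 128, 139 and 113 CPM in microglia and 12.9, 6.71 and 12 CPM in mMΦ (log2 fold change -3.59 ± 0.29, adjusted p = 0.00011). Top2a, which untangles sister chromatids, was at 176, 214 and 201 CPM in microglia and 21.4, 26.5 and 5.55 CPM in mMΦ (log2 fold change -3.46 ± 0.51, adjusted p = 0.0023), and Rrm2, a subunit of ribonucleotide reductase, at 109, 159 and 192 CPM in microglia and 10.6, 6.42 and 10.8 CPM in mMΦ (log2 fold change -4.05 ± 0.31, adjusted p = 9.3e-05). In these 3 genes the lowest microglia library was several times the highest mMΦ library.

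The difference covered the phases. For DNA replication, Mcm2, Mcm3, Mcm5, Mcm6 and Mcm7 of the replicative helicase were lower, from -2.25 for Mcm7 to -1.12 for Mcm6. For mitosis, Aurka, Aurkb, Plk1, Ccnb1 and Birc5 had log2 fold changes of -2.85, -2.48, -3.38, -3.03 and -2.75. Cdk1 was at 245, 250.4 and 212 CPM in microglia and 114, 108 and 65.8 CPM in mMΦ (log2 fold change -1.29 ± 0.22, adjusted p = 0.0043). Pcna, the sliding clamp, was among those not called (log2 fold change -0.31, 95% interval -0.80 to 0.18). The mitotic genes Cenpa and Cenpf were not called either, and their libraries overlapped between the populations. When all 45 libraries shared one estimate of the scatter, edgeR's quasi-likelihood test called 0 of the 40 genes lower, and 8 were lower at an unadjusted p under 0.05. In that fit the log2 fold changes of Mki67 and Rrm2 were -3.58 ± 1.32 and -4.04 ± 1.45, so the estimates were alike and their standard errors several times larger. DESeq2's Wald test on the 6 libraries called 33 lower. With the 9 libraries of P10 and without any single library, the count stayed within 1.5 times of 30.

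Adhesion and matrix genes exchanged members, with 12 of 36 tested higher and 16 lower (median -0.66). Higher were Tgfbi, a matrix protein that binds integrins (4.18), Lgals1 and Lgals3, galectins 1 and 3 (5.60 and 3.40), Vcam1 (3.99), Itga4 (5.24) and Ecm1 (5.35). Lower were the integrin genes Itgb1, Itgb5 and Itga6 (-1.17, -2.73 and -2.17), the junction gene Jam2, at 73.8, 95.6 and 81.1 CPM in microglia and 0.0423, 0 and 0.832 CPM in mMΦ (log2 fold change -8.26 ± 0.93, adjusted p = 0.00064), Cadm1, a synaptic adhesion molecule (-5.01), and Selplg, the ligand of P-selectin (-5.40). Npnt, nephronectin, was also lower (-7.09).

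Of 14 tested coagulation genes 6 were higher and 5 lower (4 higher and 3 lower with the shared scatter). Thbd was at 0 in microglia and 37.4, 58.8 and 37 CPM in mMΦ. Plau and Plaur, urokinase and its receptor, were higher (3.22 and 2.21), while Serpine2, an inhibitor of thrombin and urokinase, was at 1772, 2181 and 1891 CPM in microglia and 11.5, 6.71 and 12.4 CPM in mMΦ (log2 fold change -7.58 ± 0.27, adjusted p = 2.1e-06). Among 27 tested ion channels 4 were higher and 9 lower, with a median of -1.07 (3 higher and 5 lower with the shared scatter). Trpv4, a channel that opens on osmotic and mechanical stimuli, was at 0, 0.0433 and 0.0486 CPM in microglia and 43.5, 48.8 and 42.7 CPM in mMΦ (log2 fold change 10.25 ± 0.55, adjusted p = 1.5e-05). Kcnk13, the tandem-pore channel THIK-1 that sets the resting potential of microglia, was at 251, 245 and 199.9 CPM in microglia and 34, 40.4 and 46.1 CPM in mMΦ (log2 fold change -2.53 ± 0.17, adjusted p = 5e-05), and Kcnk6, Kcnk12 and the proton channel gene Hvcn1 were lower as well (-1.56, -8.26 and -2.84). Kcnd1 was at 26, 64.7 and 30.4 CPM in microglia and 0 in mMΦ.

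A list of genes known from amoeboid and lipid-associated microglia of early postnatal white matter had members on both sides, with 14 of 26 tested higher in mMΦ and 7 lower, with a median of 1.24 (7 higher and 5 lower with the shared scatter). Spp1, osteopontin, was at 48, 78.6 and 61.3 CPM in microglia and 209, 401 and 307 CPM in mMΦ (log2 fold change 2.29 ± 0.28, adjusted p = 0.00093), and Anxa5 was higher too (4.43). The tetraspanin gene Cd9 was lower, at 1061, 1432 and 1143 CPM in microglia and 43, 34.3 and 52.3 CPM in mMΦ (log2 fold change -4.81 ± 0.21, adjusted p = 4.2e-06), and the summary of this list is thus not of 1 direction.

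Immediate early genes, which respond within minutes to growth factors, stress or tissue dissociation, were higher in mMΦ. Of 36 tested 28 were higher and 8 not called (median 1.77), and their summed level was 9416 to 12732 CPM in microglia and 36098 to 42030 CPM in mMΦ. Fos was at 911, 516 and 894 CPM in microglia and 3372, 4424 and 3779 CPM in mMΦ (log2 fold change 2.32 ± 0.23, adjusted p = 0.00031), Dusp1, a phosphatase that shuts off MAP kinases, at 341, 216 and 369.6 CPM in microglia and 3116, 3384 and 2281 CPM in mMΦ (log2 fold change 3.25 ± 0.24, adjusted p = 7.5e-05), and Nr4a1 at 150.2, 94.6 and 141 CPM in microglia and 656, 1404 and 1637 CPM in mMΦ (log2 fold change 3.26 ± 0.36, adjusted p = 0.00055). Jun and Egr1 were less apart, with Jun called (1.05) and Egr1 not (log2 fold change 0.66, 95% interval 0.16 to 1.16). The heat shock genes Hspa1a and Hspa1b, near-identical copies, had log2 fold changes of 2.83 and 2.702. Several of the chemokine and cytokine genes above, Cxcl1, Cxcl2, Ccl2, Il1b and Tnf among them, are also induced by such stimuli, and the part of tissue handling in them was not tested. How the meninges and the parenchyma were dissociated is not stated in the sources used here, so tissue handling cannot be told apart from the population.

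Markers of other cells differed between the populations. Of 19 leptomeningeal fibroblast genes with a row of counts, 10 were tested, 7 were higher and 1 lower in mMΦ (Fbln1, -3.19), and 10 were higher and 0 lower with the shared scatter. Their summed level was 275, 214 and 82.2 CPM in mMΦ replicates 1, 2 and 3 and 28.4 to 35.3 CPM in microglia. Dcn was at 0 in microglia and 56.2, 39.5 and 18.7 CPM in mMΦ, Igfbp2 at 73, 46 and 17.8 CPM and Aldh1a2, the retinaldehyde dehydrogenase of the meninges, at 20.5, 15.2 and 8.55 CPM. The mMΦ libraries thus differed over 3-fold in this content, with replicate 1 highest and replicate 3 lowest. They differed likewise in Vtn, listed for mural cells, at 140.4, 83.6 and 28.3 CPM. Vtn was the 1 gene called of 3 tested mural genes, and Acta2 and Pdgfrb were not called. The defining fibroblast genes Col1a1, Col1a2 and Col3a1 reached 5.92, 30.8 and 20.8 CPM in mMΦ replicate 1, and the part of this content in the calls above was not tested.

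Of 10 tested neuronal genes edgeR called 0, with 1 higher at an unadjusted p under 0.05, and DESeq2's Wald test called 1 higher. Of 8 tested astrocyte genes 4 were higher and 1 lower (3 higher and 0 lower with the shared scatter), with the list at 33.5 to 67.4 CPM in microglia and 87.4 to 119 CPM in mMΦ. For oligodendrocytes 3 of 10 were higher (Mbp, Mobp and Mog), but edgeR called 0 with the shared scatter (6 higher at an unadjusted p under 0.05), DESeq2's Wald test 5, and edgeR only 1 without microglia replicate 3 or without any 1 of the mMΦ libraries. Of 12 monocyte genes 5 were tested, 2 were higher and 1 lower (1 higher with the shared scatter, and without microglia replicate 1 or 3 or any 1 of the mMΦ libraries), and their sum of 120 to 173 CPM in microglia and 666 to 1643 CPM in mMΦ was mostly Nr4a1, which is also an immediate early gene. The called monocyte genes were Fn1, Plac8 and Nr4a1, and Ccr2 and Treml4 were tested and not called. Of the other listed genes, Ly6c2, Chil3 and Cd177 were under 0.10 CPM in every library. Ccr2 was at 4.5, 9.71 and 4.42 CPM in microglia and 8.92, 13.7 and 3.33 CPM in mMΦ. Of 12 dendritic cell genes 8 were tested, 3 were higher (Zbtb46, Cd209a and Bst2) and 4 lower (Siglech, Fscn1, Itgae and Batf3), or 2 and 2 with the shared scatter. Their sum was 3504 to 3608 CPM in microglia and 635 to 730 CPM in mMΦ, most of it in microglia from Siglech, which is also on the microglial list, and Clec9a was at 0 in all 6 libraries. The call of Zbtb46 was lost without microglia replicate 2 or any 1 of the mMΦ libraries, and that of Batf3 without microglia replicate 1, 2 or 3 or mMΦ replicate 2 or 3. Of 15 endothelial genes 5 were tested, 2 were higher and 1 lower, with a median log2 fold change of 3.20. The called genes were Cldn5, Pecam1 and Egfl7, while Itm2a and Cdh5 were not called. The list summed to 70.8 to 75.5 CPM in microglia and 221 to 294 CPM in mMΦ. Egfl7, a gene with expression beyond endothelium, made up 183 to 243 CPM of the sum in mMΦ. Kdr, Tek and Tie1, with too few counts for a test, reached at most 0.166, 0.222 and 0.111 CPM in mMΦ. The lymphocyte list summed to 199 to 284 CPM in microglia and 192 to 229 CPM in mMΦ, nearly all from Cd79b and Cd4. Cd79b, a chain of the B cell receptor complex, was lower in mMΦ, at 199, 284 and 199.7 CPM in microglia and 118, 94.8 and 121 CPM in mMΦ (log2 fold change -1.03 ± 0.18, adjusted p = 0.0057, not called with the shared scatter), while its partner gene Cd79a was at 0 in all 6 libraries. The 1 higher gene was Cd4, which macrophages can also express, at 0.0978, 0.0867 and 0.0486 CPM in microglia and 110.4, 96.9 and 108 CPM in mMΦ (log2 fold change 10.29 ± 0.32, adjusted p = 8.3e-07), while Cd3d, Cd3e and Trac were at 0 in all 6 libraries.

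A large set of genes differed little. The 95% interval of the log2 fold change lay between -1 and 1 in 2601 of the tested genes (21.03%), and 212 of these were called all the same. Those with the highest levels that were not called were Tmsb4x, Actb, B2m, Fcer1g, Ly6e, Lamp1, Fcgr3 and Ctsa. Actb was at 6932, 4995 and 5313 CPM in microglia and 3884, 3804 and 5346 CPM in mMΦ (log2 fold change -0.40, 95% interval -0.80 to -0.01), and Fcer1g, the signalling chain of Fc receptors, at 2282, 2369 and 2752 CPM in microglia and 3009.9, 2832 and 3263 CPM in mMΦ (log2 fold change 0.30, 95% interval 0.06 to 0.53). For the other uncalled genes the interval reached past 2-fold on at least 1 side in 7053 cases, so equality is not shown for them.

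Perivascular macrophages of the same age (3 libraries of the same batch) give a second border population. They share these microglia libraries with the comparison, so only levels are set side by side, on the scaling of all 9 libraries. Lyve1 was at 1912, 1719 and 2011 CPM in pvMΦ, beside means of 0.403 CPM in microglia and 2468 CPM in mMΦ. Sall1 was at 41.2, 22.1 and 22.2 CPM in pvMΦ, beside 311 CPM in microglia and 0.605 CPM in mMΦ, and P2ry12 at 1263, 1018 and 1165 CPM, beside 11718 CPM in microglia and 347 CPM in mMΦ. For both microglial genes every pvMΦ library lay above every mMΦ library and below every microglia library. Ifi207 was at 144, 116 and 128 CPM in pvMΦ (0.532 CPM in microglia and 524 CPM in mMΦ), Ccl2 at 464, 454 and 435 CPM (53.6 CPM in microglia and 2034 CPM in mMΦ) and Fos at 1295, 977 and 1216 CPM (795 CPM in microglia and 4044 CPM in mMΦ). The immediate early list as a whole summed to 10350.3, 8648 and 10135 CPM in pvMΦ, to 9666 to 13187 CPM in microglia and to 37347 to 44212 CPM in mMΦ, so here pvMΦ overlapped with microglia. The cell cycle list summed to 2738, 2773 and 2993 CPM in pvMΦ, to 3286 to 3983 in microglia and to 936 to 1147 in mMΦ. pvMΦ libraries lay nearer to microglia than to mMΦ in this last sum. In Ifi207, Ccl2 and Fos they lay between them without overlap.

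The P10 difference was also set against those of P3 and P21, in a fit of 20 libraries with a batch term. Between P3 and P10 the difference changed in 30 of 15033 genes tested (0.200%), in 18 toward mMΦ and in 12 toward microglia. Between P10 and P21 it changed in 82 genes (0.545%), in 63 toward mMΦ and in 19 toward microglia. Of the 3 microglia libraries of P3, 2 were of female type and the other libraries of P3 and P10 of male type, so the first change also compares sexes in part. At P21, 1 of the 5 microglia libraries, replicate 1, held both Xist (109 CPM) and Y-linked reads (66.9 CPM), and the reason was not tested. Without microglia P3 replicate 3 the counts of the first change were 87 and 78, and without mMΦ P21 replicate 3 those of the second were 96 and 154, while leaving out other libraries gave 9 to 36 and 4 to 12 for the first and 31 to 79 and 8 to 23 for the second. The genes named here are therefore examples and the counts are no measure of how many differences changed.

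Among the changes toward mMΦ between P3 and P10 were a class II gene and factors of cell identity. H2-Ab1 was at 2.43 to 3.54 CPM in mMΦ at P3 and 50 to 137 CPM at P10, against 18 to 27.8 CPM and 14.9 to 24 CPM in microglia. Its log2 difference went from -2.78 to 2.33 (change 5.11 ± 0.69, adjusted p = 0.0024), so it was lower in mMΦ than in microglia at P3 and higher at P10. Id2 turned in the same way (3.62 ± 0.42, adjusted p = 0.00054), at 22.3 to 55.5 CPM in mMΦ at P3 and 423 to 599 CPM at P10. The call of Lyz2, lysozyme 2 (2.95 ± 0.51, adjusted p = 0.02), was lost without microglia P10 replicate 1, 2 or 3, mMΦ P10 replicate 1 or 3 or mMΦ P3 replicate 2.

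Nfil3, a leucine zipper factor, changed in the same direction, from 11.2 to 21.6 CPM in mMΦ at P3 to 125 to 242 CPM at P10 (change 4.33 ± 0.61, adjusted p = 0.0028). In microglia Nfil3 was at 37.6 to 56.9 CPM at P3 and 21.8 to 34.7 CPM at P10, so it was lower in mMΦ at P3 and higher at P10. On the other side stood genes that microglia are known to gain as they mature. Selplg was at 367 to 805 CPM in microglia at P3 and 3039 to 3379 CPM at P10, with 58.3 to 78.3 CPM and 67.4 to 89 CPM in mMΦ (change -2.17 ± 0.25, adjusted p = 0.00054). The changes of Tmem119 and P2ry12 (-1.90 and -1.67) had the same sign, and the call of P2ry12 was lost without mMΦ P10 replicate 1. With the scatter of all 45 libraries the calls of Nfil3, Tmem119 and P2ry12 were lost.

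From P10 to P21 the cell cycle difference shrank or turned: 17 of the 40 listed genes changed toward mMΦ. Rrm2 was at 108 to 189 CPM in microglia at P10 and 0.0551 to 1.24 CPM at P21, while mMΦ were at 6.52 to 11 CPM and 0.362 to 27.1 CPM (change 9.11 ± 1.43, adjusted p = 0.005). Without single libraries the 17 became 10 to 22, with 10 when mMΦ P10 replicate 2 or 3 was left out and 11 without microglia P10 replicate 1 or mMΦ P10 replicate 1. With the scatter of all 45 libraries 7 were called, with DESeq2's Wald test 28 and without the filter on low counts 37. The call of Rrm2 held without any 1 of the 20 libraries. Mrc1 was at 323 to 373 CPM in microglia at P10 and 14.9 to 44.3 CPM at P21, with mMΦ at 3491 to 3625 CPM and 3349 to 4111 CPM, so its difference grew (change 3.54 ± 0.37, adjusted p = 9.4e-05). Folr2, a folate receptor of border macrophages, changed likewise (4.33 ± 0.72, adjusted p = 0.0069). Toward microglia, Pmp22, a membrane protein, was at 190.1 to 248 CPM in microglia at P10 and 686 to 781 CPM at P21, where it overlapped with mMΦ (change -1.60 ± 0.20, adjusted p = 0.00098).

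**Figure D5:**
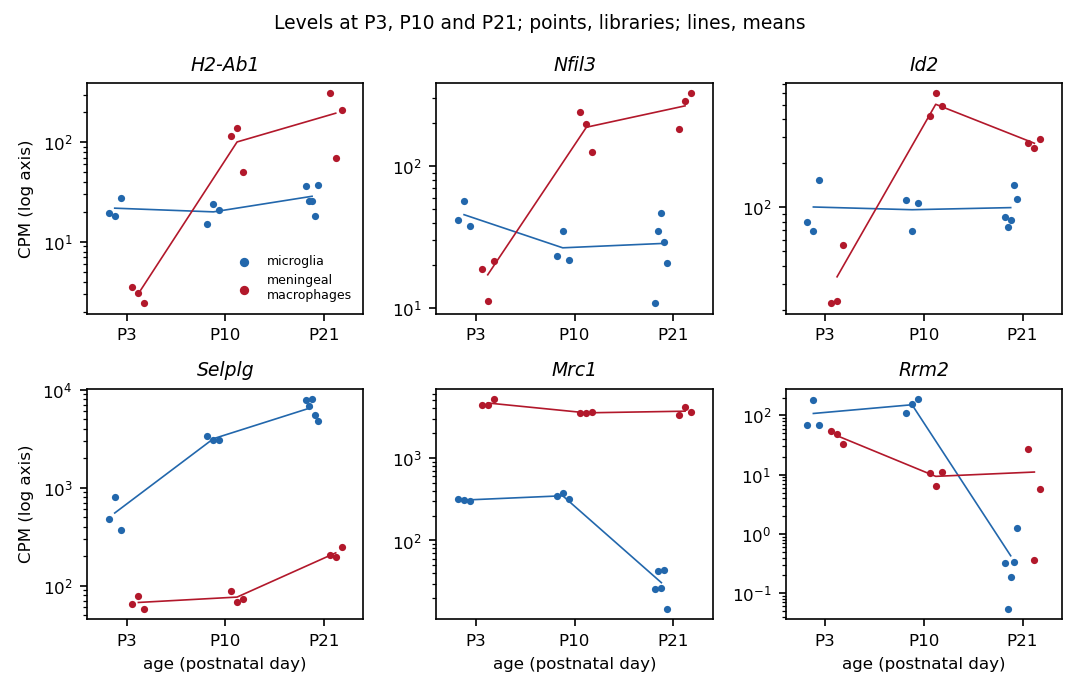
Level (CPM, log axis) of 6 genes whose difference between mMΦ and microglia changed between P3 and P10 (H2-Ab1, Nfil3, Id2, Selplg) or between P10 and P21 (Mrc1, Rrm2), with 1 point per library and lines through the means. H2-Ab1, Nfil3 and Id2 cross between P3 and P10, and the microglial levels of Mrc1 and Rrm2 drop after P10.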

How the data were processed

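RNA of sorted macrophages from single mice was extracted with the PicoPure kit, amplified with SMARTer v4 from 500 pg and made into single-read Nextera XT libraries from 150 pg of cDNA, per the labels' protocols. Per the submitters' processing notes, the authors' tools included bcl2fastq 2.18, STAR 2.7.8a and featureCounts 2.0.2, and the deposited values are raw counts per gene. The sources used here do not state the genome build, the annotation or the strand setting. Amplification from so little RNA makes low counts variable, and the reads carry no molecular identifiers.

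Counts of the 6 P10 libraries were filtered (filterByExpr, minimum count 10 and total 15), TMM-scaled and tested with edgeR 4.0.16 (quasi-likelihood, robust) in R 4.3.3, with Benjamini-Hochberg adjustment over all genes tested and calls at 0.05. Only these libraries entered, since sharing the scatter with all 45 libraries brings in other ages and batches; that fit is given as an alternative. Age changes were contrasts in a fit of 20 libraries (P3, P10 and P21) with a batch term. The standard error is the fold change over the root of F. The scripts were tested on simulated counts. Folds against a group at 0 use a floor of 3 counts over that group.

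Genes were named by rank of fold and of CPM difference (12 each way at a mean of at least 10 CPM), by list (up to 5 called and 2 uncalled) and by size of age change (8 each way); further members were chosen after their values were seen. A few genes that met these rules are not reported here. The comparison, the 39 gene lists and the tests were chosen with earlier results of these data known. Alternatives were DESeq2 1.42.0 size factors and Wald test, no filter, all 45 or all 9 P10 libraries, batch S232 alone, a replicate block and leaving out each library.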

Additional observations from a re-analysis of the deposited data

Results flagged for a closer look

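The following genes had a log2 difference between mMΦ and microglia that changed between ages, tested as a contrast in edgeR's fit of 20 libraries (adjusted p under 0.05 over 15033 genes). They were chosen by the size of the change or because the text above names them, and no cause was tested.

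From P3 to P10 the difference changed toward mMΦ by 5.65 for Gadd45g, 5.56 for Spp1, 5.16 for Mt2, 5.11 for H2-Ab1, 4.44 for Colec12, 4.33 for Nfil3, 3.62 for Id2, 3.36 for Neurl3, 2.95 for Lyz2, 1.77 for Cd14 and 1.71 for Ftl1. Mt2, a metallothionein, was at 3.76 to 8.45 CPM in mMΦ at P3 and 30.6 to 94 CPM at P10, against 9.34 to 14.54 and 4.16 to 4.91 CPM in microglia. Gadd45g, a gene induced by growth arrest and DNA damage, was at 0.384 to 2.28 CPM in mMΦ at P3 and 106 to 138 CPM at P10. Colec12 fell in both populations, in mMΦ from 522 to 577 CPM at P3 to 338 to 359 CPM at P10. In microglia Colec12 fell from 4.34 to 9.62 CPM to 0.0977 to 0.171 CPM, so near 0 that the fitted size is no bound. Spp1 fell in microglia from 586 to 2243 CPM to 47.9 to 77.7 CPM and rose in mMΦ from 66.5 to 175 CPM to 209 to 408 CPM. Toward microglia the changes were -2.17 for Selplg, -1.90 for Tmem119, -1.81 for Nrm, -1.68 for Slc46a1, -1.67 for P2ry12, -1.59 for Sesn1, -1.56 for Gpr183, -1.41 for P2ry13 and -1.34 for Siglece. Of the 16 changes taken from the ranking or described in the report, those of Gadd45g, H2-Ab1, Id2, Mt2, Nfil3, Selplg and Tmem119 kept their call without any 1 library, that of P2ry12 lost it without mMΦ P10 replicate 1, and the others lost it without several single libraries, of P10 among them. With the scatter of all 45 libraries 7 of the 16 lost their call, namely Nfil3, Nrm, P2ry12, Sesn1, Slc46a1, Spp1 and Tmem119.

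From P10 to P21 the difference changed toward mMΦ by 15.63 for Cdc25c, 11.92 for Oip5, 11.04 for Mcm10, 10.44 for Bub1b, 10.40 for Pbk, 10.34 for Kif20a, 9.11 for Rrm2, 6.50 for Top2a, 3.08 for Cdk1 and 2.86 for Mcm6, all genes of the cell cycle. Pbk, a mitotic kinase, was at 133 to 170 CPM in microglia at P10 and at 0 to 0.189 CPM at P21, with 10.9 to 16.3 and 8.997 to 16.6 CPM in mMΦ. Microglia at P21 were at or close to 0 for such genes (Oip5 at 0 in all 5 libraries), so their fitted sizes depend on the prior count and are no bound. For some of these genes the mMΦ libraries of P21 were also far apart. In replicates 1, 2 and 3, Cdc25c was at 0, 32.3 and 5.41 CPM and Bub1b at 0.0407, 44.5 and 24.9 CPM. Kif20a was at 0.0407, 33.4 and 13.5 CPM. The other changes toward mMΦ were 9.25 for Stard4, 4.33 for Folr2, 3.54 for Mrc1, 1.85 for Gas6, 1.47 for Tmem119 and 1.44 for Dab2. Toward microglia they were -6.35 for Zfp26, -4.22 for Mctp1, -2.08 for Mylip, -1.74 for Sesn1, -1.72 for Lpxn, -1.70 for Smad1, -1.60 for Pmp22, -1.57 for Exosc4 and -1.36 for Hpgd. Cdc25c lost its call without mMΦ P10 replicate 1 or 3 and Mcm10 without mMΦ P10 replicate 2, and Exosc4, Mylip, Smad1 and Zfp26 lost theirs without several single libraries. With the scatter of all 45 libraries 6 of 18 lost their call, namely Exosc4, Lpxn, Mcm10, Sesn1, Smad1 and Zfp26. Tmem119 and Sesn1 appear in both intervals: Tmem119 changed toward microglia and then toward mMΦ, and Sesn1 toward microglia both times.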

How the results depend on the processing

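At P10 the calls were 1540 higher and 1387 lower, and 2601 genes had an interval within 2-fold. With the scatter of all 45 libraries these were 656, 465 and 1371, and the cause was not tested. Other settings stayed within 1.5 times: without single libraries the ranges were 1027 to 1395, 1073 to 1200 and 2000 to 2363. Of 251 called genes named at P10, 57 lost their call with the scatter of all 45 libraries, 12 with the replicate block, 3 without the filter, 1 with 9 libraries and 4 to 10 without 1 library, and none changed sign. Among uncalled genes, the sign turned for Ccr2 (-0.0139 to 0.95 without single libraries) and Fcgr3 (-0.148 to 0.0298). The counts of age changes were not stable (18 and 12 toward mMΦ and microglia from P3 to P10, 63 and 19 from P10 to P21). They were 201, 90, 309 and 212 with DESeq2's Wald test and 241, 100, 367 and 147 without the filter. With all 45 libraries they were 26, 6, 25 and 6, in batch S232 alone 18, 5, 77 and 18, and with the replicate block 4, 0, 17 and 1, where 13 of 16 named changes from P3 to P10 (Gadd45g, Nfil3 and Lyz2 excepted) and 14 of 18 from P10 to P21 lost their call, and 6 in place of 17 cell cycle genes changed. Without single libraries they ranged from 9 to 87, 4 to 78, 31 to 96 and 8 to 154, with the highest values without microglia P3 replicate 3 and mMΦ P21 replicate 3. Deviations of the same replicate number in both populations at P10 correlated at 0.02, -0.001 and 0.02. With amplification from little RNA, such values cannot tell whether libraries of 1 number came from 1 mouse. The replicate block gave 1064 higher and 1055 lower genes, of which 2077 were also called without it. At 17557385 to 24270739 counts, depth limits genes near 0, where folds are given as bounds.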
